A study of Mus musculus with 8 samples.

Results

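The genes described here are 7 inhibitors of cyclin-dependent kinases (CDKs), Cdkn1a, Cdkn1b, Cdkn1c, Cdkn2a, Cdkn2b, Cdkn2c and Cdkn2d, and the 3 D-type cyclins, Ccnd1, Ccnd2 and Ccnd3. They were chosen by gene name among the gene probes of a whole mouse genome array, a rule that uses no measured value, though earlier results of these data were known, and they are 10 of the 19750 genes that could be given a current symbol. The array holds 15 probes for them, and all 15 passed the filter on dim probes. The RNA came from MEFs, fibroblasts grown from mouse embryos, of Lats2-/- and Lats2+/+ C57BL/6J mice. The cells received no treatment and were grown in DMEM with fetal bovine serum. Lats2 encodes a kinase of the Hippo pathway, which restrains growth. There were 3 litters, numbered 112, 116 and 121, each with 1 Lats2-/- and 1 Lats2+/+ culture that the labels name as single clones, so n = 3 litters and 6 extracts. Every array held both extracts of 1 litter in different dyes: 2 arrays with swapped dyes for litter 112, 2 for litter 116 and 4 for litter 121. Litters 112 and 116 lay on slide 1 and litter 121 alone on slide 2, so litter 121 and slide 2 cannot be told apart. Every ratio below is the log2 ratio of Lats2-/- over Lats2+/+, and every level is a normalized log2 signal of 1 probe, which can be compared between extracts but not between probes.

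Progress from G1 into S phase depends on CDK4 and CDK6, which become active when bound to a D-type cyclin and then phosphorylate the retinoblastoma protein, releasing E2F transcription factors. The INK4 inhibitors (Cdkn2a to Cdkn2d) bind CDK4 and CDK6 themselves and keep the cyclin away. The CIP/KIP inhibitors (Cdkn1a, Cdkn1b, Cdkn1c) bind whole cyclin and CDK complexes, CDK2 complexes above all. In cultured MEFs these inhibitors, with the Cdkn2a locus foremost, are known for limiting how long the cells divide, and losing that locus is a well-known route by which MEF cultures escape the limit.

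The sequences around the starts of these genes were read for short motifs. Promoter sequences from RefSeq (GRCm38.p6, 250 bases before to 50 after a start) matched 7 of the 10 genes with 11 starts. The sequences of 5 genes on which the results turn are printed 5′ to 3′ on the gene's strand. Capitals mark the GC box GGGCGG, the E2F-type motif GCGGGAA and a pair of p53 half-sites (both strands, at most 1 mismatch over the pair), of which the first 2 can overlap each other. The probes' own positions in the scanner files refer to the older build mm8 and were not placed on these sequences.
Cdkn1a, chr17:29090729-29091028, plus strand: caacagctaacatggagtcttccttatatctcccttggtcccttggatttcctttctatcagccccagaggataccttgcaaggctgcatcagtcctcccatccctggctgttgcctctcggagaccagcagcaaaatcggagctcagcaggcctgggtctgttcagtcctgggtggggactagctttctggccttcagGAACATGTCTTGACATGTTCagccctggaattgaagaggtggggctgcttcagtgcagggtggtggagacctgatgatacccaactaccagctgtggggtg
Cdkn1b, chr6:134920151-134920450, plus strand: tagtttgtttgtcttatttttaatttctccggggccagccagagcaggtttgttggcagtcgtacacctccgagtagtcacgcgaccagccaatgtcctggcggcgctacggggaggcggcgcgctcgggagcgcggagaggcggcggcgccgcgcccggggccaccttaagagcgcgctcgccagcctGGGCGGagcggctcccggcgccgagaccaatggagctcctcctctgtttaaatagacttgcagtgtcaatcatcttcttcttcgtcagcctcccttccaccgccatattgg
Cdkn2a, chr4:89294570-89294869, minus strand: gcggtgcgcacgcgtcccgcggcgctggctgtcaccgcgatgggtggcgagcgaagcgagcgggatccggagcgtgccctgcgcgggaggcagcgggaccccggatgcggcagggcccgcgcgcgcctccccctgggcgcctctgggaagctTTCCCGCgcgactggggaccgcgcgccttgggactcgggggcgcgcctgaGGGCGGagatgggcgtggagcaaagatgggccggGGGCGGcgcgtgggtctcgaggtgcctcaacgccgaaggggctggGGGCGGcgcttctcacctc
Cdkn2a, chr4:89282143-89282442, minus strand: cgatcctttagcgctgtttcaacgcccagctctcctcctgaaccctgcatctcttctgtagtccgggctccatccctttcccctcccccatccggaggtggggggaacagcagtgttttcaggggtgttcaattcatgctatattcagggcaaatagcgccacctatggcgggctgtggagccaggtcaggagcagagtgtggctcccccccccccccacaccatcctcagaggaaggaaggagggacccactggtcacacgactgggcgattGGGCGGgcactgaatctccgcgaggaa
Cdkn2b, chr4:89310983-89311282, minus strand: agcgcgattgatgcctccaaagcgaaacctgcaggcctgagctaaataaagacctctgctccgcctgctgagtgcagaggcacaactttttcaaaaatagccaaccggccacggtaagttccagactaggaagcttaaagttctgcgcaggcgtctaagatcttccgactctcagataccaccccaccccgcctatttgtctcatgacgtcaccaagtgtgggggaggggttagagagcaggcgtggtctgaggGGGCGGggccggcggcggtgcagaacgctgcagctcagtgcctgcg
Cdkn2d, chr9:21291160-21291459, minus strand: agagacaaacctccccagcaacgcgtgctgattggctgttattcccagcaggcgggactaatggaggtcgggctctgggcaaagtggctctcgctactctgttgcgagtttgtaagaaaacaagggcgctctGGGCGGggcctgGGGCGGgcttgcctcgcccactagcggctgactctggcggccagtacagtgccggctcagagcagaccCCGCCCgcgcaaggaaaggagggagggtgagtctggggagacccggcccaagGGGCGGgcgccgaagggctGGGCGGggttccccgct
The upstream Cdkn2a start (printed first of the pair) gives the transcript for the protein p19Arf and the downstream start that for p16Ink4a. The array's Cdkn2a probe lists accessions of both transcripts and cannot separate them. A p53 pair was found in 1 of the 11 starts, the upstream one of Cdkn1a, a classical p53 target, and in 0.0883% of all 32851 promoters. The other Cdkn1a start, at chr17:29093519-29093818, is not printed and held 2 GC boxes and 0 p53 pairs. A GC box was in 9 of the 11 and in 35.7% of all promoters. The E2F motif was in 2 of the 11, the upstream starts of Cdkn2a and Cdkn2c, against 4.60% of all. The TEAD-type motif GGAATG, for the factors through which the Hippo pathway acts, was in 1 of the 11, a start of Ccnd3, against 14.7% of all. The FOXO-type motif TGTTTAC was in 1 of the 11, the other start of Ccnd3, against 3.65% of all, and neither of these 2 motifs is marked with capitals. These matches describe letters in a 300-base window and say nothing of binding.

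The targeted gene was read first. Of 4 Lats2 probes, the one that lies apart from the other 3 on the chromosome gave ratios of -1.33, -1.05 and -0.56 in litters 112, 116 and 121. The other 3 probes lay between -0.70 and -0.18 in litters 112 and 116 but between 0.80 and 1.17 in litter 121. The library labelled Lats2-/- of litter 121 thus had the higher signal on 3 of 4 Lats2 probes, which stands beside every direction given for litter 121. The marker genes of fibroblasts were above background in every channel for 7 of 8 genes. Their summed log2 level lay between 17.51 and 18.74 over the 6 extracts, but the eighth, Pdgfra, was at 6.30 in the Lats2-/- extract of litter 121 against 11.14 to 13.45 in the Lats2+/+ extracts. Pdgfra was above background on 6 of 8 Lats2-/- channels and on 8 of 8 Lats2+/+ channels. The detected ones also differed within litters. In litter 121 Thy1 had a ratio of -3.66 and Col3a1 of -3.42, and in litter 116 Col3a1 had 3.70, Col1a1 2.75, Fn1 2.40 and Thy1 2.05. Pecam1, Cdh5, Ptprc, Emr1, Epcam, Myog, Des and Sox2, which define endothelial, white blood, epithelial, muscle and neural cells, were above background in 0 channels. Other genes of those lists did have signal: Nes, a neural marker, read 12.52 in the Lats2-/- extract of litter 121 against 7.50 to 8.42 in the other 5, Acta1, a muscle marker, 8.56 in the Lats2+/+ extract of litter 116 against 11.82 to 13.33, and Cd14, of macrophages, 7.08 to 10.81. Of the epithelial markers, Krt19 was above background on 8 of 8 Lats2-/- and 5 of 8 Lats2+/+ channels, with ratios of 2.42, 0.37 and 1.83. Cdh1 was above it on 4 Lats2-/- and 0 Lats2+/+ channels, at 7.16 in the Lats2-/- extract of litter 121, and Krt8 and Krt18 each on 0 and 2. Of the endothelial markers, Tek was above background on 8 Lats2-/- and 7 Lats2+/+ channels, at 6.36 to 6.68, and Kdr on 4 and 0. In the same order Tubb3 was above it on 8 and 8, Sox10 on 7 and 7, Cd68 on 4 and 7, Csf1r on 4 and 3, and Myod1 on 0 and 1. The part of these markers in the results below was not tested. In RNA from a whole culture, fewer cells of a kind and less RNA per cell cannot be told apart.

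Over the whole array no probe passed limma's test at an adjusted p of 0.05, 0% of the 22642 kept probes, and so 0 of the 10 genes did. At an unadjusted p under 0.05, 2 of the 10 genes passed by their brightest probe, Cdkn1b and Ccnd1, beside 6.84% of all kept probes. Ratios had 1 sign in all 3 litters for 4 of the 10, Cdkn1b, Cdkn2c, Ccnd1 and Ccnd2, beside 29.7% of all kept probes. The median SD of the litter ratios over all kept probes was 0.255. The list below therefore describes what was measured in each litter, with no gene called changed.

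**Figure D1:**
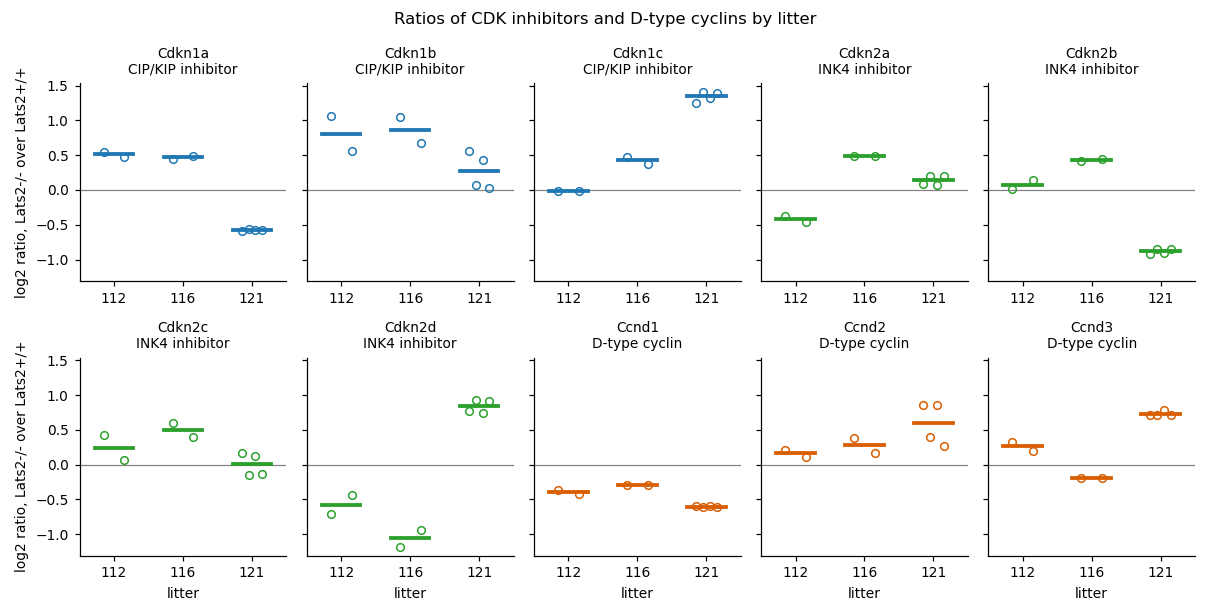
Log2 ratio of Lats2-/- over Lats2+/+ (vertical axis) in each litter (horizontal axis) for the brightest probe of each gene; open circles are arrays and bars are litter means (2, 2 and 4 arrays). Cdkn1b lies above 0 and Ccnd1 below 0 on all 8 arrays, while Cdkn1a, Cdkn2b and Cdkn2d have 1 sign in litters 112 and 116 and the other in litter 121; Cdkn1c was not above background in litter 112.

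Cdkn1b, which encodes the CDK2 inhibitor p27Kip1, had the largest mean ratio of the 10 genes on its brightest probe as the values are reported here. Cdkn1c was larger with offset 16 (0.74 against 0.70) and with processed signals and the deposited value table (0.96 against 0.72 in both). It was also larger with slide as a random block (0.77 against 0.56), without litter 112 (0.88 against 0.57) and without litter 116 (0.66 against 0.54). With a gene's probes averaged, Cdkn1b was 0.57, under the 0.58 of the single Cdkn1c probe. Cdkn2a (0.94) was larger with processed signals and in the value table. With the sign of litter 121 turned, Cdkn1a (0.52) and, in size, Cdkn2d (-0.82) exceeded Cdkn1b (0.47). Its probe with 10 spots, at chr6:134886778-134886836 (mm8), read 9.10 in Lats2-/- and 8.32 in Lats2+/+ cells of litter 112, 9.08 and 8.25 in litter 116, and 8.44 and 7.94 in litter 121. Every Lats2-/- extract was above every Lats2+/+ extract on this probe. The ratios were 0.78, 0.82 and 0.50, a mean of 0.70 ± 0.17 (SD, n = 3) or 1.63-fold, and limma's 95% interval was 0.37 to 1.04 (unadjusted p = 0.0047, adjusted p = 0.711). The single spots ran from 0.69 to 0.89 in litter 112, from 0.66 to 0.995 in litter 116 and from 0.36 to 0.62 in litter 121, so the spots of litter 121 lay below those of the other litters.

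The brightest Cdkn1b probe, at chr6:134890890-134890949, gave 0.81, 0.86 and 0.27, a mean of 0.65 ± 0.33 (unadjusted p = 0.0187). Its arrays depended on the dye: 1.06 and 0.56 in litter 112, and from 0.03 to 0.56 in litter 121. The third probe gave 0.30, 0.40 and 0.34, a mean of 0.35 ± 0.05 (unadjusted p = 0.0251), and its Lats2-/- extracts (7.66 to 7.77) also lay above its Lats2+/+ extracts (7.26 to 7.47). The 3 probes thus shared the direction on all 8 arrays and differed in size, from 0.35 to 0.70. They also differed in level between litters. The mean level of litter 121 minus that of the other litters was 0.74 on the brightest probe, -0.50 on the probe with 10 spots and -0.02 on the third. On the brightest probe the extracts of the genotypes overlapped, since the Lats2+/+ extract of litter 121 (9.68) was above the Lats2-/- extract of litter 116 (9.29). That probe's p was 0.117 when the pairing by litter was dropped, and 0.0747 by the methods' t-test.

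Over the 6 extracts, the 3 genes whose centred levels lay nearest to those of the brightest Cdkn1b probe, out of 12510 genes, were Fblim1, Kank3 and Tmem127. Their Euclidean distances in log2 units were 0.18, 0.21 and 0.28. The other Cdkn1b probes had different levels between litters, so these neighbours are those of the brightest probe alone. Fblim1 had ratios of 0.94, 0.94 and 0.30, Kank3 of 0.69, 0.82 and 0.10, and Tmem127 of 0.70, 0.62 and 0.31.

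Cdkn1a encodes p21, the inhibitor that p53 switches on. Its probe lies at chr17:28828096-28828155 (mm8). Its levels were 12.63 in Lats2-/- and 12.12 in Lats2+/+ cells of litter 112, 11.98 and 11.51 in litter 116, and 12.54 and 13.11 in litter 121. Lats2-/- cells were above their littermates in litters 112 and 116 and below them in litter 121, and the genotypes overlapped. The ratios were 0.51, 0.47 and -0.58, with a mean of 0.13 ± 0.62 (unadjusted p = 0.651). The 10 spots of this probe had SDs between 0.01 and 0.04 on an array, and no spot of litter 121 was above -0.53 or of the other litters under 0.41. The spread of spots is that of the array alone and leaves out variation between cultures. Trp53, the gene of p53, had ratios of -0.27, -0.11 and -0.41 in the same order. Mdm2, another p53 target, had 0.45, -0.30 and 0.00. Without litter 121, Cdkn1a was 1 of 3 members with an unadjusted p under 0.05 (with Cdkn1b and Cdkn2d), on 2 litters of 1 slide, beside 6.43% of all kept probes in that setting.

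Cdkn1c, the imprinted inhibitor p57Kip2, was not well above background in either extract of litter 112, where its levels were 6.22 and 6.23. Its levels were 7.95 in Lats2-/- and 7.52 in Lats2+/+ cells of litter 116, and 8.03 and 6.68 in litter 121. It was measured in 2 litters, and higher in the Lats2-/- extract in both. The ratios were -0.02, 0.42 and 1.34, a mean of 0.58 ± 0.69 (unadjusted p = 0.131), in which the first value is background over background. The mean was 0.88 without litter 112, 0.20 without litter 121 and 0.96 in the deposited value table.

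For Cdkn2a and Cdkn2b, both INK4 inhibitors, litter 116 differed from the other litters far more than the genotypes differed within any litter. Cdkn2a levels were 10.08 in Lats2-/- and 10.51 in Lats2+/+ cells of litter 112, 6.59 and 6.10 in litter 116, and 10.60 and 10.45 in litter 121. Cdkn2b, which encodes p15Ink4b, read 11.35 and 11.28 in litter 112, 6.54 and 6.11 in litter 116, and 10.79 and 11.68 in litter 121. Both extracts of litter 116 were low on both probes. In the Lats2+/+ extract of litter 116 both probes were above background on 0 of 2 arrays, and in the Lats2-/- extract they were above it on 2 of 2.

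**Figure D2:**
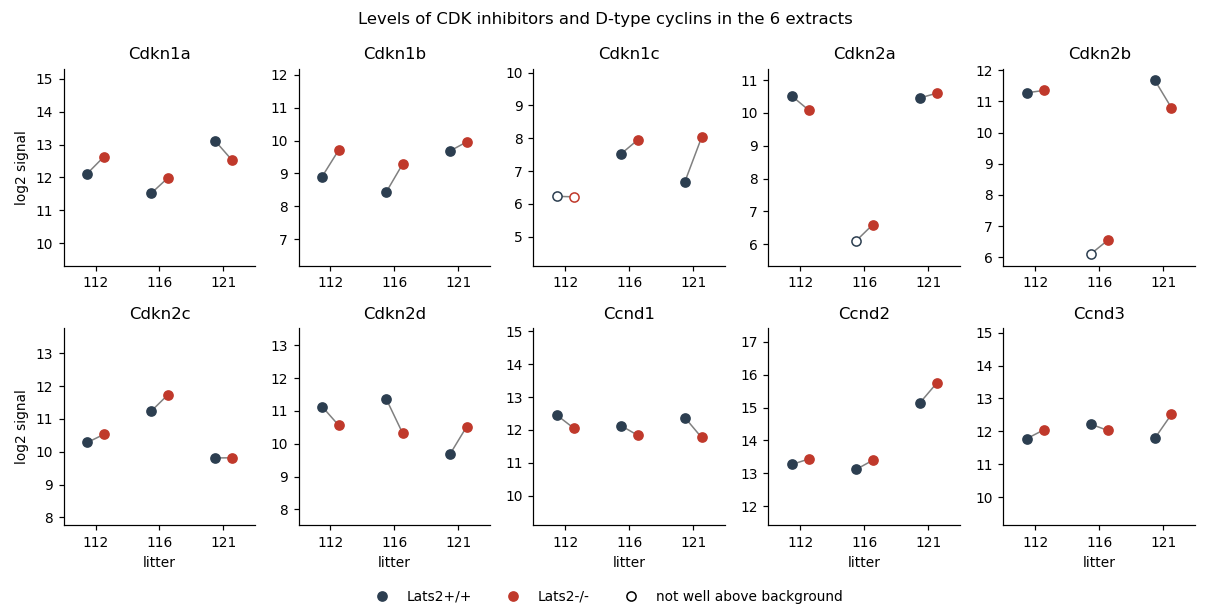
Normalized log2 signal (vertical axes, each panel spanning at least 6 units) of the brightest probe of each gene in the 6 extracts, by litter (horizontal axis); lines join the extracts of a litter, and open symbols were not well above background. Cdkn2a and Cdkn2b sit near 6 in both genotypes of litter 116 and above 10 elsewhere, and Ccnd2 sits above 15 in litter 121 alone.

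The mean level of the 2 extracts of litter 116 minus that of the other 4 was -4.06 for Cdkn2a and -4.95 for Cdkn2b on the log2 scale, or 16.7-fold and 30.9-fold lower. These folds are bounds, since the Lats2+/+ extract of litter 116 was not well above background. The offset added in background correction also makes them smaller than the true ones. Of all 22642 kept probes, 3 had both extracts of litter 116 at least 8-fold below each of the other 4, or 0.0132%. These were Cdkn2a, Cdkn2b and Efemp1, whose gene encodes a matrix protein of fibroblasts. The 8-fold limit was set after the values were seen.

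The neighbours of the pair on chromosome 4 (mm8) were therefore read, a choice made after their values were seen. The probes of Cdkn2a (chr4:88745872-88745931) and Cdkn2b (chr4:88777764-88777823) and 12 other kept probes lay within 1000000 bases on either side, of 31 probes there in all. Mtap, an enzyme of methionine salvage 94332 bases from the Cdkn2a probe, read 6.58 in the Lats2-/- extract of litter 116, against 9.33 to 9.74 in the other 5 extracts. Both Klhl9 probes read 6.00 and 6.18 in that extract, where they were above background on 0 of 2 arrays, against 7.40 to 8.48 in the other 5. Focad, farther out, read 6.57 there against 8.86 to 9.76 elsewhere. The Lats2-/- extract of litter 116 was thus low at AK033780, Focad, Hacd4, Klhl9, Mtap, Cdkn2a and Cdkn2b, and its Lats2+/+ littermate at Cdkn2a and Cdkn2b but not at the other genes.

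Hacd4 was also low in another extract. Its brighter probe read 6.53 in the Lats2+/+ extract of litter 112 and 6.91 in the Lats2-/- extract of litter 116, against 9.36 to 9.72 in the other 4. The adjoining AK033780 probe read 6.42 and 6.84 in those 2 extracts and from 9.27 to 9.74 elsewhere, while Focad, next to it, read 9.60 in the Lats2+/+ extract of litter 112. The interferon probes Ifna9, Ifna13 and Ifnab between these genes read 6.48 to 6.94 over the 6 extracts. The Ifnz probe read 7.02 and 7.43 in litter 116 and 7.50 to 8.21 in the other 4 extracts. These are RNA levels, and the DNA of the locus was not measured.

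**Figure D3:**
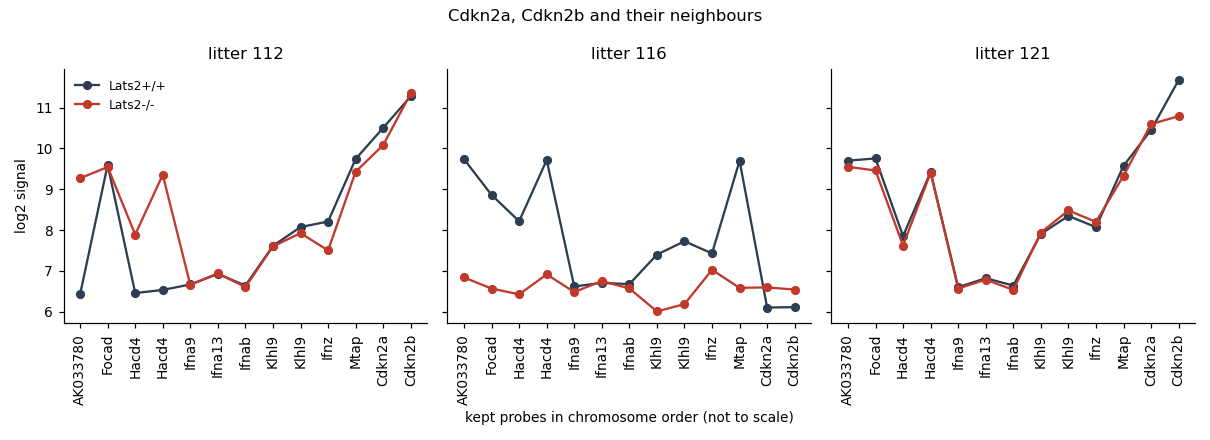
Normalized log2 signal (vertical axis) of the kept probes of named transcripts around Cdkn2a and Cdkn2b in chromosome order (horizontal axis, not to scale), with 1 panel per litter and 1 line per genotype. In litter 116 the Lats2-/- line stays near or under 7 across the row and the Lats2+/+ line drops to 6.10 and 6.11 at Cdkn2a and Cdkn2b; in litter 112 the Lats2+/+ line is low at AK033780 and Hacd4.

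Within litters, Cdkn2a ratios were -0.42, 0.49 and 0.14, a mean of 0.07 ± 0.46 (unadjusted p = 0.758). In litter 116 Lats2-/- cells had at least 1.41-fold more Cdkn2a signal than their littermate and at least 1.32-fold more Cdkn2b signal, both as bounds since the Lats2+/+ extract was not well above background. The Cdkn2a bound equals the measured ratio, because the dim signal exceeded the floor on both arrays. Cdkn2b ratios were 0.07, 0.43 and -0.88, a mean of -0.13 ± 0.68 (unadjusted p = 0.695). The deposited value table, in which dim signals are treated otherwise, gave means of 0.94 for Cdkn2a and 0.54 for Cdkn2b, so the sign of Cdkn2b turned. Neither gene had 1 direction over the litters.

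Cdkn2c, which encodes p18Ink4c, read 10.53 in Lats2-/- and 10.28 in Lats2+/+ cells of litter 112, 11.73 and 11.23 in litter 116, and 9.82 and 9.81 in litter 121. Both extracts of litter 116, where Cdkn2a and Cdkn2b were low, were the highest for this gene, and both of litter 121 the lowest. The ratios were 0.25, 0.50 and 0.00, a mean of 0.25 ± 0.25 (unadjusted p = 0.153), and the second probe gave 0.24, 0.48 and -0.02.

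Cdkn2d encodes p19Ink4d, an inhibitor whose message is known to follow the cell cycle. Its levels on the probe at chr9:21038938-21038997 (mm8) were 10.56 in Lats2-/- and 11.13 in Lats2+/+ cells of litter 112, 10.32 and 11.37 in litter 116, and 10.52 and 9.68 in litter 121. The Lats2-/- extracts were within 0.24 of each other and the Lats2+/+ extracts spread over 1.69, by the labels. The ratios were -0.57, -1.06 and 0.84, the widest range of the 10 genes by the labels (1.90, or 0.49 with the sign of litter 121 turned), with a mean of -0.27 ± 0.98 (unadjusted p = 0.565). The sign was negative on all 4 arrays of litters 112 and 116 and positive on all 4 of litter 121.

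The 3 genes whose centred levels lay nearest to those of Cdkn2d over the 6 extracts, out of 12510, were Ect2, Pcna and Cenpf, at distances of 0.27, 0.33 and 0.36. They encode a cytokinesis factor, the clamp of DNA polymerases and a kinetochore protein. Ect2 ratios were -0.72, -1.003 and 0.77, Pcna ratios -0.47, -0.99 and 0.40, and Cenpf ratios -0.67, -0.93 and 0.56. Their likeness to Cdkn2d in sign follows from how they were chosen.

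Among the D-type cyclins, Ccnd1 was the gene with the lower level in every Lats2-/- extract. On its probe, at chr7:144739658-144739717 (mm8), it read 12.05 in Lats2-/- and 12.44 in Lats2+/+ cells of litter 112, 11.84 and 12.13 in litter 116, and 11.77 and 12.37 in litter 121. The genotypes did not overlap: the highest Lats2-/- extract (12.05) was below the lowest Lats2+/+ extract (12.13). Ccnd1 was the 1 gene of the 10 whose brightest probe separated the genotypes, beside 6.13% of all kept probes. With litter 121 turned, 0 of the 10 did, beside 4.45%. The ratios were -0.39, -0.29 and -0.60, a mean of -0.43 ± 0.16 (SD, n = 3), so that Lats2-/- cells had 74.3% of the Lats2+/+ signal. The limma interval ran from -0.75 to -0.10 (unadjusted p = 0.0223, adjusted p = 0.711). The 10 spots of its probe agreed closely, with SDs between 0.02 and 0.05 on an array, and every spot on every array was below 0.

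Ccnd2 was measured by 3 probes. Its brightest probe read 13.43 in Lats2-/- and 13.27 in Lats2+/+ cells of litter 112, 13.39 and 13.11 in litter 116, and 15.74 and 15.14 in litter 121. Both extracts of litter 121 stood above the other 4, by 2.14 on the log2 scale or 4.40-fold on average, and the other probes gave 2.01 and 2.03. Among all kept probes 0.689% had both extracts of litter 121 at least 2-fold above each of the other 4 (a limit set after the values were seen). Beside that, the ratios were 0.16, 0.28 and 0.59, a mean of 0.35 ± 0.22 (unadjusted p = 0.0622), which was 0.22 without litter 121. The other probes gave 0.22, 0.31 and 0.68 (unadjusted p = 0.0468) and 0.20, 0.33 and 0.66 (unadjusted p = 0.0457). All 3 probes were higher in Lats2-/- cells on all 8 arrays, in the opposite direction to Ccnd1.

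Ccnd3 read 12.04 in Lats2-/- and 11.78 in Lats2+/+ cells of litter 112, 12.03 and 12.22 in litter 116, and 12.52 and 11.79 in litter 121. The Lats2-/- extract was the lower one in litter 116 only. The ratios were 0.26, -0.19 and 0.73, a mean of 0.27 ± 0.46 (unadjusted p = 0.281), which was 0.04 without litter 121 and 0.49 without litter 116.

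Set side by side within each litter, the inhibitors and the cyclins did not move as blocks. The 7 inhibitors had median ratios of 0.07, 0.47 and 0.14 in litters 112, 116 and 121, with 4, 6 and 5 of 7 above 0. The 3 cyclins had medians of 0.16, -0.19 and 0.59, with 2, 1 and 2 of 3 above 0. The medians of all kept probes were 0.01, 0.00 and -0.00, with 11518, 11339 and 11263 of 22642 above 0. Litter 116 was the litter with most inhibitors higher and most D-type cyclins lower in Lats2-/- cells, and Cdkn2d was the 1 inhibitor lower there. The inhibitors counted as higher in litter 116 include Cdkn2a and Cdkn2b, whose Lats2+/+ extract was not well above background. The count and median of litter 112 include Cdkn1c, which was background over background. These limits apply to the ranking of litters too.

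**Figure D4:**
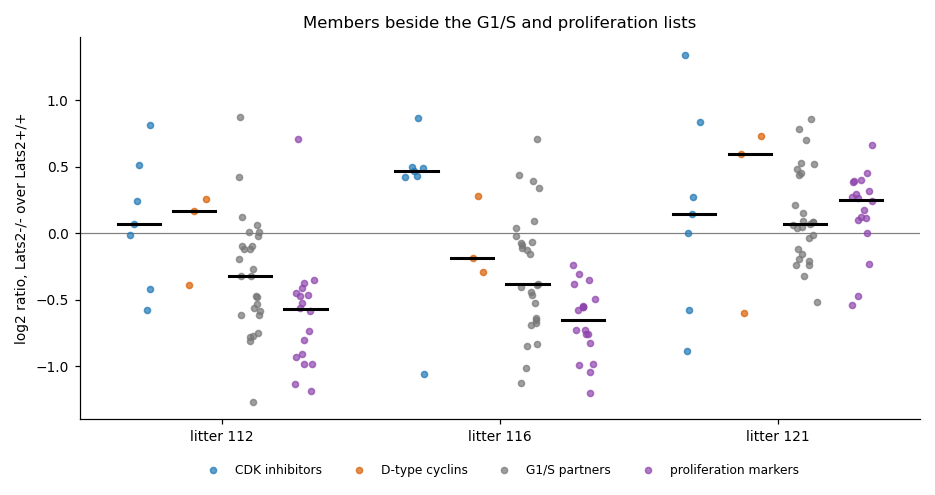
Log2 ratio of Lats2-/- over Lats2+/+ (vertical axis) in each litter (horizontal axis) for the 7 inhibitors, the 3 D-type cyclins, 27 G1/S partner genes and 18 proliferation markers, 1 brightest kept probe per gene; black bars are medians. Proliferation markers have medians of -0.57 and -0.65 in litters 112 and 116 and 0.25 in litter 121.

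The partners of these genes gave a wider view of the same step. Of 27 G1/S genes (CDKs, cyclins E and A, retinoblastoma proteins, E2Fs and their helpers), all with a kept probe, 21, 21 and 10 were lower in Lats2-/- cells of litters 112, 116 and 121, with medians of -0.32, -0.38 and 0.07. Of the 22642 kept probes, 11124, 11303 and 11379 were lower in the same order. At an unadjusted p under 0.05, 1 of 27 passed, a share below the 6.84% of all kept probes. This was Cdc25a, the phosphatase that activates CDK2, with ratios of -0.75, -0.46 and -0.24 (unadjusted p = 0.0288). Cdk4 had ratios of -0.11, -0.64 and 0.08, and Cdk6 of -0.32, 0.71 and 0.21. Rb1, the retinoblastoma gene, had 0.42, 0.40 and 0.07 (unadjusted p = 0.0804).

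Of 17 regulators of the members, 1 passed at an unadjusted p under 0.05, a share near the 6.84% of all kept probes. It was Ets2, a factor that can activate Cdkn2a, with ratios of 0.31, 0.25 and 0.61 (unadjusted p = 0.0374). Myc, which represses Cdkn1a and Cdkn2b, had -0.05, -1.57 and -1.06. Ezh2, the methyltransferase that silences the Cdkn2a locus in MEFs, had -0.46, -0.93 and 0.69.

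Of 18 proliferation markers, 17, 18 and 4 were lower in Lats2-/- cells of litters 112, 116 and 121, against 11124, 11303 and 11379 of the 22642 kept probes. Mcm6 and Ccnb2, 2 of the 18, passed limma's test at an unadjusted p under 0.05, beside 6.84% of all kept probes. Both were lower, with ratios of -0.73, -0.76 and -0.54 and of -0.35, -0.55 and -0.47. Mki67 had -1.14, -0.30 and 0.46. In litter 121 the median of the list and 14 of its 18 genes were above 0, while Mcm6 and Ccnb2 were below 0 in every litter. Cdkn2d went from below to above 0 in litter 121, and Cdkn1a and Cdkn2b from above to below. A change of sign between litter 121 and both other litters was seen in 3 of the 10 genes, beside 24.4% of all kept probes. These counts rest on the labels of litter 121, for which 3 of 4 Lats2 probes were higher in the library labelled Lats2-/- and 1 was lower. With the sign of litter 121 turned, an alternative chosen after seeing the data, Cdkn1a, Cdkn2b and Cdkn2d had 1 sign in all 3 litters, and Cdkn1b, Cdkn2c, Ccnd1 and Ccnd2 did not. The Ccnd1 mean was then -0.03. The part of the proliferation rate, of the clones and of the slide in these ratios was not tested.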

How the data were processed

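RNA of 3 pairs of Lats2-/- and Lats2+/+ MEF clones was hybridised on 8 two-colour Agilent arrays (design 14868, mm8). The authors scanned them with Agilent Feature Extraction (10.7.3.1 per the file headers, 10.5.1.1 in the submitters' processing notes). The deposited intensity values are mean spot and median local background brightness without normalization, beside processed intensities that were background-subtracted and dye-normalized; median spot intensity was 60.9 to 68.2 in green and 83.1 to 94.2 in red. The deposited log10 ratios come from those processed signals, and the value table differed from them by at most 0.005 once turned to Lats2-/- over Lats2+/+, which fixes its direction. Flags deposited with them mark outlier, saturated and above-background spots.

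Mean intensities were corrected with normexp (offset 50) and normalized by loess within each array in limma 3.58.1 (R 4.3.3). Of 43379 gene spots per array, 860 outliers over all arrays were left out and 0 were saturated. Repeat spots were averaged, then the arrays of a litter, since they share extracts. A probe was kept if well above background in at least 2 of 3 extracts of either genotype (22642 of 41174). Levels per extract followed Aquantile scaling. The 3 litter ratios were tested against 0 (two-sided), and p-values were adjusted over kept probes by Benjamini-Hochberg, with a threshold of 0.05. Genotypes are paired because each array holds both extracts of a litter; ratios of arrays correlated at 0.869 within litters and 0.402 within slides. The p-values of this test set the mean of the 3 litter ratios against their spread, so the number of litters limits the precision. A gene is given by its brightest kept probe, and "at least" folds are bounds against, per array, the higher of the lowest signal well above background and the dim probe's own.

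All probes of the 10 genes are reported, with Lats2, Cdk4, Cdk6, Rb1, any partner or regulator at an unadjusted p under 0.05, and the 3 genes nearest to Cdkn1b (largest mean) and Cdkn2d (widest range). Other names were added after values were seen. The members and lists were chosen with earlier results of these data known. Alternatives tried are the offset, processed signals, the value table, median centring, the filter, the pairing, litter or slide as a random block, the methods' t-test, averaging a gene's probes, and leaving out each litter; turning the sign of litter 121 was added after seeing the data. The fit was tested on simulated data. 1 marker list is not reported here.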

Additional observations from a re-analysis of the deposited data

Results flagged for a closer look

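Cdkn1a, Cdkn2b and Cdkn2d had 1 sign on all 4 arrays of litters 112 and 116 and the other sign on all 4 arrays of litter 121, a difference that was not tested. This is 3 of 10 genes, beside 24.4% of all kept probes by litter means, and the Cdkn2b arrays of litter 112 read 0.0081 and 0.138. The litter 121 ratio minus the mean ratio of the other litters was -1.07 for Cdkn1a, -1.14 for Cdkn2b and 1.65 for Cdkn2d on the log2 scale. The Cdkn2b value rests in part on litter 116, where the Lats2+/+ extract was not well above background and the ratio is a bound.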

How the results depend on the processing

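The number of probes past the adjusted threshold was 0 in every setting but 2, with 1549 probes at an unadjusted p under 0.05 in the reported setting. Taking arrays as replicates with litter as a random block gave 341 adjusted and 2998 unadjusted calls, and with slide as the block 717 and 4030. Without the filter on dim probes 2623 of 41174 probes had an unadjusted p under 0.05, and dropping the pairing (no replicate block) left 554. Leaving out 1 litter gave 1145 to 1457. Of the 10 genes, 2 had an unadjusted p under 0.05, and leaving out 1 litter gave 0 to 3 (0 without litter 112, Ccnd1 alone without litter 116, and Cdkn1a, Cdkn1b and Cdkn2d without litter 121). Cdkn1b alone was left with processed signals and with the value table (1 each), Ccnd1 alone without the pairing and by the methods' t-test (1 each), and 5 genes passed with slide as a block. With slide as a block Ccnd1 (-0.47) also passed the adjusted threshold by limma with arrays as replicates (adjusted p = 0.0133, against 0.0763 to 1 in its other alternatives), the 1 gene of the 10 to do so in any setting. With litter as a random block Cdkn1c (limma's unadjusted p = 0.0171) passed in place of Cdkn1b (limma's unadjusted p = 0.0703), beside Ccnd1.

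Of 140 values of single genes under an alternative, 14 turned the sign, none of them called. With slide as a block Cdkn1a was -0.044 and Cdkn2d 0.0104. Leaving out 1 litter gave -0.054 to 0.49 for Cdkn1a (negative without 112 or 116), -0.14 to 0.32 for Cdkn2a and -0.82 to 0.13 for Cdkn2d (turned without 116), and -0.41 to 0.25 for Cdkn2b (turned without 121). It gave 0.20 to 0.88 for Cdkn1c, 0.12 to 0.37 for Cdkn2c, 0.22 to 0.44 for Ccnd2 and 0.04 to 0.49 for Ccnd3, with no change of sign. Cdkn1c was 0.96 with processed signals and with the value table. Cdkn2b was 0.54 with processed signals and with the value table. With the sign of litter 121 turned (chosen after seeing the data), 1081 probes and 2 genes (Cdkn1a and Cdkn2d) had an unadjusted p under 0.05, and 5 of the turned signs came from it: Cdkn1c -0.31, Cdkn2a -0.024, Cdkn2b 0.46, Ccnd2 -0.051 and Ccnd3 -0.22. The cause was not tested. Under the strict filter Cdkn1c, Cdkn2a and Cdkn2b had no value. Dim signals of litters 112 (Cdkn1c) and 116 (Cdkn2a, Cdkn2b) limit their ratios.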
